A study of Mus musculus with 2 samples.

Results

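The upper follicle keratinocytes described here were chosen by their own transcripts from single-cell RNA sequencing of newborn mouse back skin, so they are a range of cells around a set of markers and not a sorted population. Cells were kept when they had more than 1000 and fewer than 8000 detected genes and less than 15% mitochondrial UMIs, where a UMI (unique molecular identifier) counts 1 captured transcript. A kept cell counted as a keratinocyte when Krt5 and Krt14 together reached at least 10 UMIs per 10000 and exceeded Col1a1 and Col1a2 together. A keratinocyte became a member when at least 4 of the 7 markers Aldh3a1, Sostdc1, Scube2, Fst, Lgr6, Sema3a and Pparg had a UMI and at most 1 of the sebocyte genes Cidea, Fa2h and Cyp2g1 had 1. Members numbered 823 of 8206 kept cells and of 4702 keratinocytes, with 511 in the control and 312 in the Gli2EKO library.

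The study compared back skin epidermis of mice at P2, at 2 days of age, with and without the transcription factor Gli2 in keratinocytes. Gli2EKO mice carried the K14Cre transgene, which drives Cre recombinase from a keratinocyte promoter, and homozygous floxed Gli2 alleles (K14Cretg; Gli2 fl/fl), and controls were floxed littermates without Cre, labelled WT, all on the C57BL/6N background. Epidermis was freed from the dermis with collagenase and dissociated with trypsin, and each genotype gave 1 library of a 10x 3' assay, with the number of mice behind each not stated in the sources used here. With 1 library per genotype no difference was tested, and genotype, animal and library cannot be told apart.

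The upper hair follicle lies between the bulge and the skin surface, and holds the isthmus, the junctional zone, the infundibulum and the opening of the sebaceous gland. Lgr6 and Lrig1 are known to mark progenitors in this region, and cells that pass through it can enter the sebaceous gland, the sebaceous duct or the infundibulum. Hedgehog ligands act through Ptch1 and Smo on the Gli factors, and in skin this pathway is best known for the downgrowth of the follicle.

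The control library held 6326 cell barcodes and 71021773 UMIs, and the Gli2EKO library 4296 and 48866478, with no barcode in common. The filter kept 4844 and 3362 cells, of which 2597 and 2105 were keratinocytes. Members were somewhat deeper than the other keratinocytes, with a median of 14331 UMIs per cell in control and 15542 in Gli2EKO, against 13023 and 13283. Mitochondrial transcripts made up 2.88% and 2.73% of the members' UMIs, and ribosomal protein transcripts 16.4% and 18.2%. Members were among the 8% of kept cells with the highest doublet scores more often than keratinocytes as a whole. The share was 12.9% of control and 10.6% of Gli2EKO members, against 8.59% and 7.79% of keratinocytes. Scrublet's automatic limit, set in each library apart, instead marked 47 control members and 0 Gli2EKO members, of 261 and 14 kept cells marked, and an alternative without these cells was not run.

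Levels are given as CPM, UMIs of a gene per 1000000 UMIs summed over a class of cells in a library, with exact 95% Poisson intervals in parentheses. Ratios carry exact conditional binomial intervals and shares of cells Clopper-Pearson intervals, also at 95%, and all of these cover counting error only. The targeted gene Gli2 stood at 84.1 (78.05 to 90.6) CPM in control and 88.2 (80.3 to 96.6) CPM in Gli2EKO members, and at 85.1 and 89.4 CPM in the other keratinocytes. The deleted exons are not stated in the sources used here. A 3' tag outside the deleted part still counts the truncated transcript, so this level does not check the genotype labels.

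The markers that chose the members cover several roles, and their values here describe the choice and support nothing. Among the secreted factors, Sostdc1, an antagonist of BMP and Wnt signals, was at 962 (941 to 983) CPM in control members and 967 (941 to 994) in Gli2EKO members, against 236 and 265 CPM in the other keratinocytes. Fst, which encodes the activin-binding protein follistatin, was at 1155 (1132 to 1178) and 787 (763 to 812) CPM, against 202 and 287. Sema3a, a guidance ligand of neuropilin and plexin receptors, was at 109 (102 to 116) and 49.1 (43.3 to 55.5) CPM, and Scube2, which helps to release lipid-modified Hedgehog ligands, at 93.7 (87.3 to 101) and 62.1 (55.5 to 69.3). Both were rare outside the members, with 7.75 and 5.52 CPM for Sema3a and 4.24 and 3.73 for Scube2.

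The R-spondin receptor Lgr6 was at 291 (279 to 302) CPM in control and 233 (220.2 to 247) in Gli2EKO members, against 47.4 and 36.8 CPM in other keratinocytes. Aldh3a1, an enzyme that oxidises aldehydes, stood furthest from the rest, at 185 (176 to 194) and 217 (204 to 229.7) CPM against 3.61 and 5.52. Pparg, the nuclear receptor that drives lipid storage in sebocytes and adipocytes, was at 119.7 (112 to 127) and 137 (128 to 148) CPM against 20.9 and 17.7. Its level was higher still in keratinocytes with at least 2 of the 3 sebocyte genes, a class that the rule keeps apart from members, at 441 and 354 CPM.

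Cells just inside and just outside the threshold differed in the markers themselves. In control, cells with 4 markers held 794 CPM of Sostdc1, 227 of Lgr6, 31.5 of Aldh3a1 and 70.2 of Pparg, and cells with 3 markers held 486, 147, 8.34 and 12.8. In Gli2EKO the same genes were at 898, 174, 52.5 and 54.4 CPM with 4 markers and at 553, 120.1, 11.3 and 25.9 with 3. The cells with 3 markers numbered 313 and 275.

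A level that a marker did not choose itself was obtained by leaving that marker out and taking keratinocytes with at least 4 of the other 6. Every marker was found in a larger share of such cells than of the remaining keratinocytes, in both libraries. Aldh3a1 had a UMI in 51.1% of 472 control and 53.7% of 259 Gli2EKO cells chosen by the other markers, against 4.47% and 5.90% of the remainder. Pparg was found in 37.4% and 36.7%, against 6.12% and 4.61%. Sostdc1 and Fst were the most widespread elsewhere, with a UMI in 59.8% and 56.5%, and in 49.5% and 58.1%, of the remaining control and Gli2EKO keratinocytes. Sema3a was found in 53.4% (48.6 to 58.1) of the control cells chosen without it and in 33.3% (27.9 to 39.2) of the Gli2EKO cells, and Scube2 in 48.5% (43.6 to 53.3) and 34.8% (28.9 to 41.2).

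**Figure D1:**
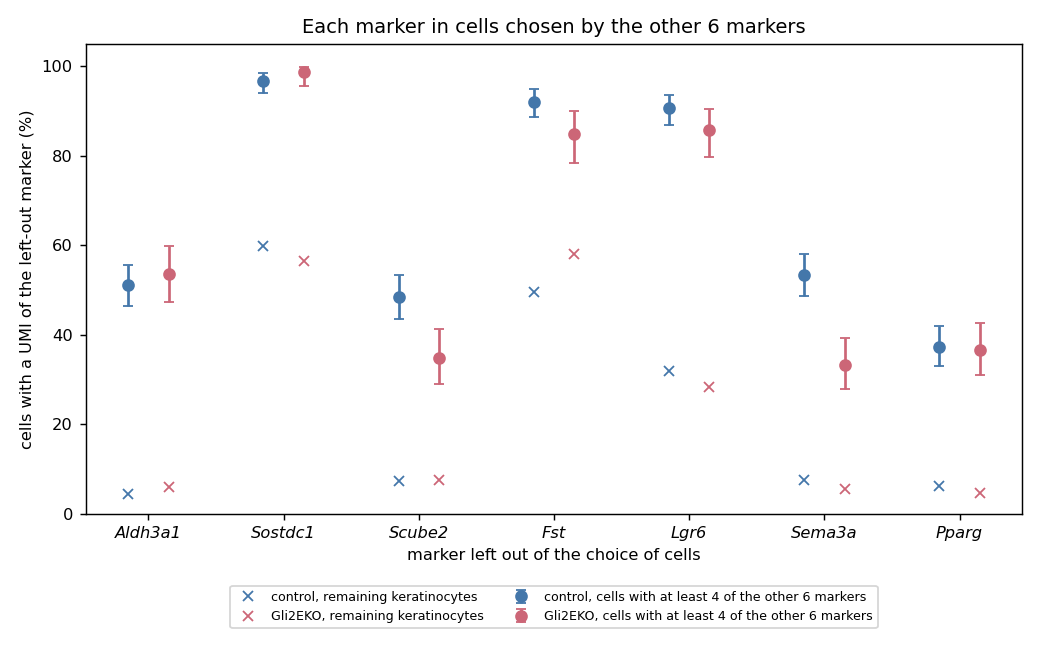
Percentage of cells with a UMI of each of the 7 markers (y axis) when cells are chosen by at least 4 of the other 6, for control (blue) and Gli2EKO (red), with 1 library each. Filled circles with Clopper-Pearson 95% intervals are the chosen cells and crosses are the remaining keratinocytes, and each circle lies above the cross of its library, with lower Gli2EKO circles for Scube2 and Sema3a.

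Scube2, Sema3a and Lgr6 were the rule markers with a lower Gli2EKO level in cells chosen by the other markers for which a RefSeq promoter entry was at hand (table of build GRCm38.p6, each entry matched to the GRCm39 genome by its sequence), and the stretch of each outside the gene's annotated exons is shown so that it can be set beside those levels. They were picked after those levels were seen, and nothing is drawn from the pairing. The Lgr6 and Scube2 stretches end where the annotated gene begins, whereas the Sema3a stretch lies inside the annotated gene, chr5:13175288-13653578, downstream of its outermost start. Pparg had entries too, and Aldh3a1, Sostdc1 and Fst had none. Both strands were searched for the GLI site TGGGTGGTC and its core GGGTGG, which overlaps the longer site. These occurred in 71 (0.218%) and 9156 (28.1%) of 32536 promoters, each a window of 250 bases. The Lgr6 and Scube2 stretches shown are shorter, at 164 and 230 bases, so the shares do not apply to them directly. The Lgr6 stretch holds overlapping copies of the core on the other strand, in capitals, and the Scube2 and Sema3a stretches hold neither. A match says only that these letters are present, and no match only that they are absent from the window.
Lgr6, chr1:135033101-135033264, minus strand, GRCm39: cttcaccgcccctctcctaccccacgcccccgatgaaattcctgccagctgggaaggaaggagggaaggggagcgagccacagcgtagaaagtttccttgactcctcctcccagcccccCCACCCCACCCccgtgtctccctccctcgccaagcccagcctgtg
Scube2, chr7:109464907-109465136, minus strand, GRCm39: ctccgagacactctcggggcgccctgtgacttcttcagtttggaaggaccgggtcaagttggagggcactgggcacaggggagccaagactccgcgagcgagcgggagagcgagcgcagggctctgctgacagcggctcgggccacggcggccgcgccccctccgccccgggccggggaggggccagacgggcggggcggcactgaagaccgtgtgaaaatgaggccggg
Sema3a, chr5:13446501-13446750, plus strand, GRCm39: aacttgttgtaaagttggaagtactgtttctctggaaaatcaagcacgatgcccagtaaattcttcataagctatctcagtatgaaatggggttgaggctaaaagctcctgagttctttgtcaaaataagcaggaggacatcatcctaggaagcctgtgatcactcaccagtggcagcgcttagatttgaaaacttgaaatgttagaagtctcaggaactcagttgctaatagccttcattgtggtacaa

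Markers outside the rule fitted the label in part. Lrig1, an ErbB receptor antagonist of junctional zone progenitors, was at 553 (537 to 569) CPM in control and 359.9 (344 to 377) in Gli2EKO members, 2.04 and 2.15 times its level in the other keratinocytes. Gata6, a transcription factor of the upper follicle and sebaceous duct, was at 47.6 (43.04 to 52.5) and 28.00 (23.6 to 32.9) CPM, 8.86 and 4.64 times the others. Krt79, a keratin of the infundibulum and duct, was at 691 and 754 CPM against 398 and 656, short of 2-fold in each library. Some other genes of the region were higher in members in control only. Plet1, a surface protein of the isthmus, was at 108 and 76.7 CPM against 89.2 and 90.6 in the others, and Cst6, a protease inhibitor of the infundibulum, at 479 and 255 against 313 and 471. Of the 10 upper follicle genes listed outside the rule, Lrig1 and Gata6 were at least 2-fold higher in members in each library and Klk10 at least 2-fold lower. Over all genes, 1.18% were at least 2-fold higher in each library and 3.22% at least 2-fold lower.

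The members also differed from neighbouring classes. Keratinocytes rich in Krt79 and Krt6a, called companion-marked (99 control and 100 Gli2EKO cells), held 5697 and 7745 CPM of Krt79, a level that describes their choice. They held 11037 and 12981 CPM of the follicle keratin Krt17, far above the members' 2348 and 3361 CPM of Krt17. Keratinocytes with at least 5 of 7 follicle stem and outer sheath genes, called stem-marked (925 and 541 cells), held 455 and 406 CPM of Lgr5, a stem cell marker of the lower follicle, against 57.1 and 44.3 in members. Lgr5 was among the genes that chose the stem-marked cells, so this level too describes their choice. Nfatc1, a transcription factor of bulge stem cells, was in turn higher in members, at 152 and 127 CPM, than in stem-marked cells, at 53.4 and 83.2, although it helped to choose the latter. At least 10 UMIs of Krt17 per 10000 were found in 66.5% of control and 81.4% of Gli2EKO members.

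**Figure D2:**
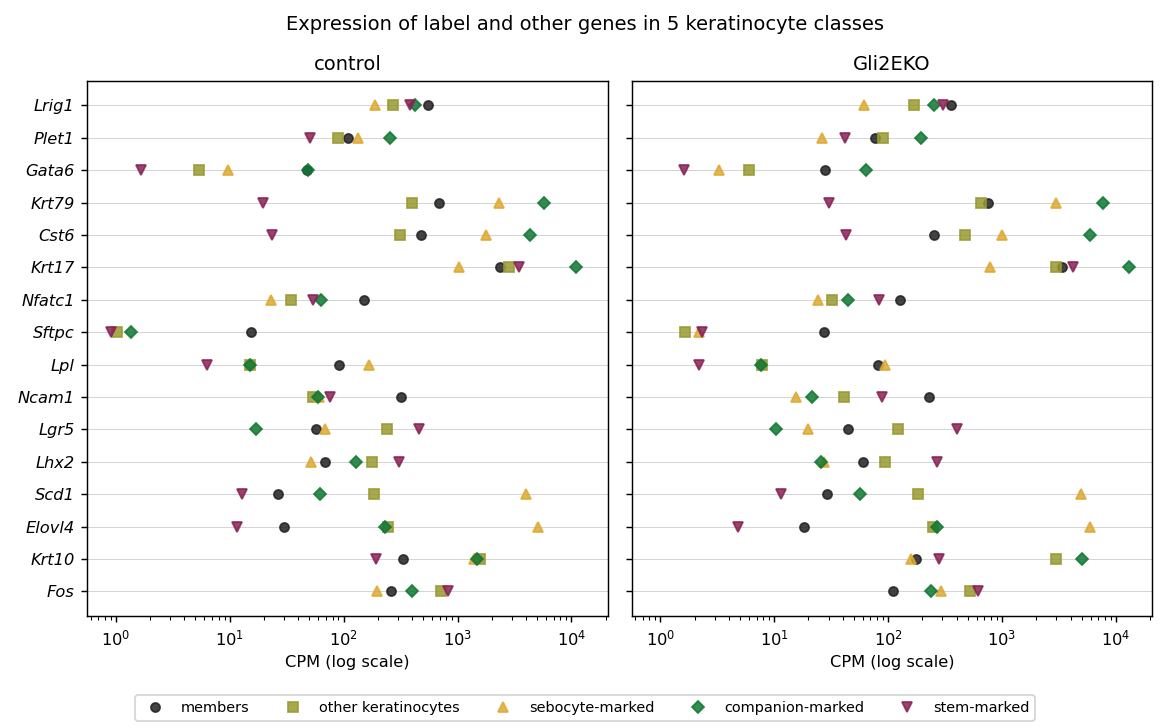
CPM (log scale) of label genes and of other named genes in members (black circles), other keratinocytes (squares), sebocyte-marked (triangles), companion-marked (diamonds) and stem-marked cells (inverted triangles), control left and Gli2EKO right, 1 library each. Members lead in Lrig1, Nfatc1, Sftpc and Ncam1 in both libraries, and sebocyte-marked cells in Scd1 and Elovl4. Companion-marked cells lead in Cst6, in Krt17 and in Krt79, which helped to choose them. A class with no UMI of a gene has no symbol.

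Over all genes, 136 of 11566 (1.18%) were at least 2-fold higher in members than in other keratinocytes in each library, and 373 (3.22%) were at least 2-fold lower, among genes with at least 100 UMIs in each library's keratinocytes. These counts include the markers of the rule and what comes with them, so nothing is read from them. The leading genes outside the rule, ranked by the smaller of the library ratios, were Sftpc, Gm42906, Lgi3, Trpc4, Syt9, Bcan, E030044B06Rik, Rab3b, Lrrn1 and Espn, followed by 9130015A21Rik, Zfpm2, Chil1, Kank4, Lpl, Ncam1, Syn2, Serpina3g, Gata6 and Cpsf4l. Syt9 and Syn2 encode synaptic vesicle proteins, Rab3b a GTPase of vesicle release, Bcan a proteoglycan of brain matrix and Ncam1 an adhesion molecule. Of these Ncam1 was the most abundant, at 318 (306 to 329.8) CPM in control and 229 (216 to 243) in Gli2EKO members, 5.84 and 5.55 times the other keratinocytes. Lpl, the lipoprotein lipase, was at 90.9 and 82.1 CPM, 6.04 and 10.4 times the others, and sebocyte-marked cells held 168 and 94.5 CPM.

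Sftpc, the gene of lung surfactant protein C, led the ranking at a low level, with 15.4 (12.9 to 18.3) CPM in control and 27.2 (22.9 to 32.1) in Gli2EKO members against 1.03 and 1.64 in the others. Zfpm2, a cofactor of GATA factors, was at 20.2 and 22.6 CPM, and Trpc4, a cation channel, at 23.1 and 13.04, where the other keratinocytes had 3.02 and 2.87 CPM of Zfpm2 and 1.46 and 1.30 of Trpc4. Espn, an actin-bundling protein, was at 23.7 and 28.00 CPM against 3.21 and 3.65.

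The other keratinocytes include all sebocyte-marked cells, which the rule bars from members. The genes of members furthest below these other keratinocytes, among those at 100 CPM or more there, were Tagln, Elovl4, Scd1, Gjb2, Krt1, Serpinb2, Ghr, Krt10, Sfrp1 and H19. They mark several fates. Scd1, a fatty acid desaturase of mature sebocytes, was at 26.3 and 28.95 CPM in members against 184 and 182 in the others and 4010.3 and 4908 in sebocyte-marked cells. The 52 control and 28 Gli2EKO sebocyte-marked cells all lie among the others. The place of Scd1 in this list thus rests on the rule, and nothing is read from it. Its level in the others without those cells was not tested. Krt10, a keratin of suprabasal epidermis, was at 329 and 177 CPM against 1566 and 2966, and 1 member of each library held 844 of its 2772 control and 344 of its 921 Gli2EKO UMIs in members. Sfrp1, a secreted Wnt antagonist of the outer sheath, was at 52.2 and 41.2 CPM against 278 and 179.

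Lists of genes with a known role were counted in the same way, beside 3.22% lower and 1.18% higher over all genes. Of 16 sebaceous lineage genes, 7 were at least 2-fold lower in members in each library and none was 2-fold higher. The list summed to 674 and 693 CPM in members against 2054 and 2714 in the other keratinocytes and 25535 and 39005 CPM in sebocyte-marked cells. The rule places all sebocyte-marked cells among the others, so lower sebaceous genes in members describe the choice and nothing is read from them. Of 12 PPAR partners and targets with enough counts, 3 were at least 2-fold higher, Ppara and Lpl among them, and Cd36 was lower. Of the 20 genes of sterol and fatty acid synthesis, 5 were lower and none higher. The same limit holds for this list, which summed to 14945 and 18185 CPM in sebocyte-marked cells. Of 12 dissociation stress genes, 7 were lower, and their sum was 3075 and 1968 CPM against 5266 and 5849 in the others. The S phase genes, none of 12 past 2-fold, summed to 1251 and 1359 CPM against 958 and 826.

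Signalling and adhesion genes were counted next, beside the same shares over all genes. Of 15 Hedgehog genes with enough counts none was 2-fold higher, and the ligand gene Shh was lower, at 2.97 and 3.64 CPM against 18.1 and 10.5 in the others, with Ihh at 0 UMIs in members. Ptch1, receptor and target of the pathway, was at 104 and 97.03 CPM against 191 and 127, and the target Gli1 at 11.5 and 9.97 against 25.6 and 14.3. Of 31 Wnt genes none was 2-fold higher, and Wnt3, Lgr5, Sfrp1 and Lef1 were lower. Wnt6, a ligand gene, was at 93.6 and 111 CPM against 43.6 and 63.2, and Axin2, a target of the pathway, at 39.7 and 29.9 against 19.7 and 16.7. Of 20 BMP and activin genes and 10 semaphorin genes, none passed 2-fold in both libraries. Of 13 FGF and EGF genes 5 were lower, of 20 adhesion and matrix genes 5, and of 8 Notch genes the ligand gene Jag1. Of 12 retinoid and aldehyde genes 1 was lower and Crabp1 was higher, but in control it was below the other keratinocytes, at a log2 ratio of -1.24, without 24 members that carried genes of muscle, melanocytes, dermal papilla or red blood cells.

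Members varied with the number of markers found, and genes outside the rule varied with it. In control, Sftpc went from 6.90 CPM in cells with 4 markers to 13.8, 17.1 and 39.1 CPM with 5, 6 and 7, and in Gli2EKO from 9.003 to 30.1, 52.2 and 106. Lpl was at 48.9 CPM with 4 markers and 159 with 7 in control, and at 42.7 and 172 in Gli2EKO. Plin2, which coats lipid droplets, was at 45.6 and 93.8 CPM in control, and at 52.8 and 165 in Gli2EKO. Lpl and Plin2, chosen after their values were seen, were thus highest in both libraries with 7 markers. A deeper cell shows more markers, and the part of depth in this order was not tested. The rule's own markers set these groups, so every cell with 7 markers held Pparg. The part of that choice in the levels of Lpl and Plin2 was not tested either.

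Some keratins were lower with 7 markers than with 4, but Krt15 was at 2188 and 1899 CPM in control and rose from 962 to 1751 in Gli2EKO. Krt17 was at 2839 CPM with 4 markers and 1145 with 7 in control, and at 4206 and 1674 in Gli2EKO. Krt10 was at 563 and 66.05 CPM in control and 252 and 76.9 in Gli2EKO, and Krt14, a basal keratin that the rule used, at 6496 and 2966, and 6668 and 3374. Lhx2, a transcription factor gene of the lower follicle, was at 98.9 CPM with 4 markers and 29.5 with 6 in control, and at 91.2 and 15.8 in Gli2EKO. The G2/M genes, of dividing cells, summed to 2073, 2933, 2893 and 2662 CPM across 4 to 7 markers in control, and to 2347, 2271, 3749 and 1835 in Gli2EKO. Only 15 Gli2EKO cells had 7 markers, and with 6 the Gli2EKO levels were 134 CPM for Lpl, 89.8 for Plin2, 1956 for Krt17, 114 for Krt10 and 4043 for Krt14, on the same side of the level with 4 markers.

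**Figure D3:**
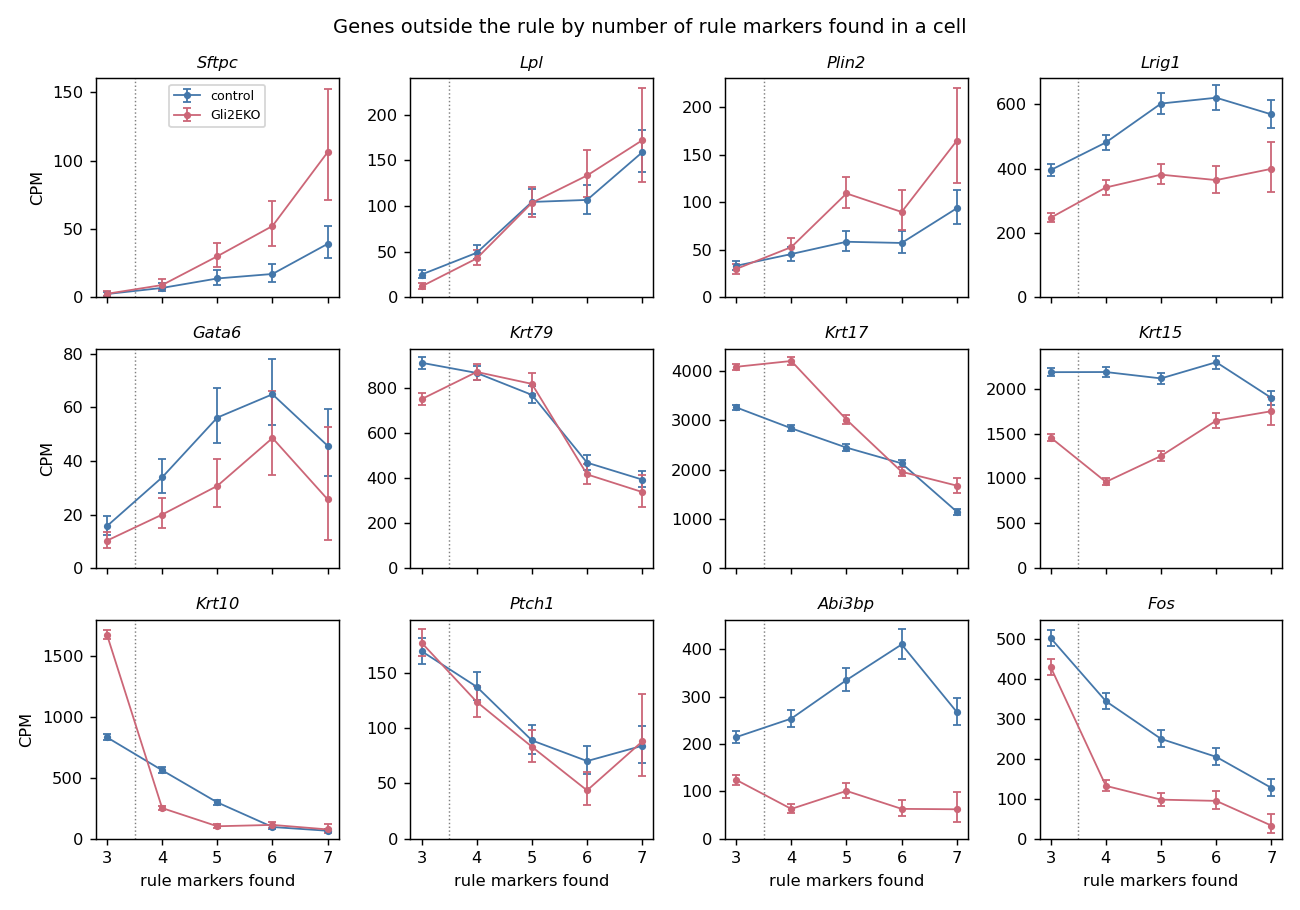
CPM (y axis, own scale per gene) of 12 genes outside the rule in keratinocytes grouped by the number of markers found (x axis), control in blue and Gli2EKO in red, with Poisson 95% intervals, the genes chosen after their values were seen. The dotted line separates members from cells with 3 markers, and Sftpc, Lpl and Plin2 lie higher at 7 markers than at 4 in both libraries, Krt17 and Krt10 lower, and Abi3bp lower in Gli2EKO than in control at every number.

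Members made up 19.7% (18.2 to 21.3) of control and 14.8% (13.3 to 16.4) of Gli2EKO keratinocytes, a ratio of 0.753 (0.652 to 0.869). The ratio depended on what members were counted against. Of all kept cells they were 10.5% (9.70 to 11.4) and 9.28% (8.32 to 10.3), a ratio of 0.880 (0.762 to 1.01), and of keratinocytes with at least 10 Krt17 UMIs per 10000 they were 19.9% (18.00 to 21.8) and 19.7% (17.5 to 21.9), a ratio of 0.989 (0.838 to 1.17). The Krt17 limit itself was met by 66.5% of control and 81.4% of Gli2EKO members, and its part in that ratio was not tested. The cells with most markers differed more between the libraries. Cells with all 7 were 65 of control and 15 of Gli2EKO keratinocytes, 2.50% (1.94 to 3.18) and 0.713% (0.399 to 1.17), whereas cells with 4 were 8.05% (7.03 to 9.16) and 7.36% (6.28 to 8.56). Because the markers chose the members, a lower level of a marker and fewer cells of a kind cannot be told apart in these shares.

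Within members, 150 of the 9878 genes for which the members of the libraries together held 100 UMIs or more (1.52%) were at least 1.5-fold higher in Gli2EKO and 718 (7.27%) at least 1.5-fold lower, called higher and lower from here on, so that 17.3% of the called genes were higher. Centred on the median gene instead of total UMIs, the counts were 253 and 477, and 34.7% were higher. The median log2 ratio of Gli2EKO over control was -0.08. Among the called genes named here, the rule marker Scube2, Lrig1, Crabp1, Crabp2, Dll1, Maml2, Dst, Insig1, Inhbb, Sema3e, Dnajb1, Gm42906, Lrrn1 and Syt9 fell short of 1.5-fold when centred, and Krt17 and Col1a2 then passed it. In the other keratinocytes the same genes gave 177 higher (1.79%), 488 lower (4.94%) and a median of -0.11, and 29 genes were higher and 186 lower in both classes.

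The markers of the rule chose the members, so no genotype difference is read from their levels in members. In cells chosen by the other markers, Sema3a was at 102 and 45.8 CPM in control and Gli2EKO, Scube2 at 85.1 and 47.1 and Fst at 1119 and 752. Lgr6 was at 316 and 265 CPM in such cells and Sostdc1 at 1046 and 1030.0. The markers occur in the same cells, so these levels are not free of the choice either. In other keratinocytes, Fst had a log2 ratio of 0.50 and Lgr6 of -0.36, and there too the rule had set apart the cells with most markers.

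Of 12 Hedgehog genes in members none was called higher and 2 were called lower, beside 7.27% lower and 1.52% higher over all genes, with a median of -0.19, against -0.26 for the same genes in other keratinocytes and -0.08 over all genes of members. The lower genes were Hhip, a target that binds and restrains Hedgehog ligands, at 18.98 (16.2 to 22.2) and 5.75 (3.88 to 8.21) CPM, and the transcription factor Gli3, at 120.1 (113 to 128) and 71.1 (64.1 to 78.8). Hhip came from few members, and with those left out that had at least 2 genes of an immune, endothelial, melanocyte or fibroblast list, which leaves 248 of 511 control and 166 of 312 Gli2EKO members, 2 of its 160 control and 2 of its 30 Gli2EKO UMIs remained. Gli3 stayed past 1.5-fold without those cells, at -0.71, and when centred on the median gene, at -0.67, but not in members with at least 5 markers, at -0.51, with cells of 3 markers taken in, at -0.52, or with the rule applied after thinning, at -0.49. The receptor and target Ptch1 was at 104 (96.8 to 111) and 97.03 (88.8 to 106) CPM and the target Gli1 at 11.5 (9.33 to 14.04) and 9.97 (7.45 to 13.1), intervals that overlap, whereas in the other keratinocytes Ptch1 was called lower, at -0.59 (-0.65 to -0.53), and Gli1 at -0.84 (-1.02 to -0.66). Both depended on the choice of members. Over the alternatives the log2 ratio in members ran from -0.57 to 0.31 for Ptch1 and from -0.49 to 0.01 for Gli1. Smo, the transducer of the signal, was at -0.05 (-0.21 to 0.11) in members and at 0.03 when centred on the median gene, and the co-receptor genes Gas1, Cdon and Boc at 0.02, -0.32 and -0.18. Whether members and other keratinocytes differed in these ratios was not tested.

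Of the upper follicle genes outside the rule, 4 of 10 were called lower and 1 higher, beside 7.27% lower and 1.52% higher over all genes, with a median of -0.42 in members and 0.12 in the others. Lrig1 was lower at -0.62 (-0.70 to -0.54) in members and at -0.70 (-0.75 to -0.64) in the others. Gata6 was lower at -0.77 (-1.05 to -0.49), with 0.17 in the others and -0.55 in members with fewer than 2 genes of each of the immune, endothelial, melanocyte and fibroblast lists, and Cst6 at -0.91 (-0.998 to -0.82), with 0.59. Applied after each cell was thinned to 5000 UMIs, the rule gave members in which Cst6 was at 0.12. The proton pump subunit gene Atp6v1c2 was lower at -1.07 (-1.56 to -0.61) and the defensin gene Defb6 higher at 1.31 (1.11 to 1.51), though at -0.53 without the members that had 2 or more markers of another type. Krt79 was at 0.13 (0.07 to 0.18) in members and 0.72 (0.69 to 0.75) in the others. Centred on the median gene, Lrig1 came to -0.54 and was no longer past 1.5-fold, nor was it with the rule applied after thinning, at -0.57, or without the members with markers of another type, at -0.53.

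Of 12 follicle stem and outer sheath genes, Krt15, a keratin of bulge and basal cells, was called lower and Tbx1, a transcription factor of follicle stem cells, higher, beside 7.27% lower and 1.52% higher over all genes. Krt15 was at 2149.9 (2119 to 2181) CPM in control and 1198 (1169 to 1228) in Gli2EKO members, and at 1950.5 and 2180.4 in the others. Within 4, 5, 6 and 7 markers its log2 ratio was -1.19, -0.76, -0.48 and -0.12, so the difference was smallest in cells with most markers, and with at least 5 markers it was -0.58, just short of 1.5-fold. Tbx1 was at 41.2 (36.96 to 45.7) and 63.9 (57.2 to 71.1) CPM, and at 175 and 107 in the others, but its ratio in members with at least 5 markers was 0.00. Krt17 was at 0.52 (0.49 to 0.55) in members, short of 1.5-fold, and at 0.60 when centred on the median gene. Lgr5, Lhx2, Sox9 and Nfatc1 were at -0.37, -0.20, -0.43 and -0.26 in members and at -0.95, -0.92, -0.49 and -0.10 in the others.

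Genes of the sebaceous lineage gave 3 of 11 lower and none higher, beside 7.27% lower and 1.52% higher over all genes, with a median of 0.00. The lower genes included Elovl4, an elongase, at -0.71 (-1.06 to -0.36), and Insig1, which restrains sterol synthesis, at -0.61 (-1.06 to -0.17). With the rule applied after thinning they were at -0.26 and -0.13, short of 1.5-fold, and with cells of 3 markers taken in Elovl4 was at -0.11. Plin2 was at 0.48 (0.29 to 0.67). PPAR partners and targets gave 2 of 11 lower, beside the same shares, with a median of -0.40. They included the fatty acid binding protein gene Fabp4, at -1.53 and at 1.30 with cells of 3 markers taken in. Lpl was at -0.15 (-0.32 to 0.03). Pparg itself was at 0.20 (0.06 to 0.34), and from -0.02 to 0.51 over the alternatives. It helped to choose the members, so no genotype difference is read from it.

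Lists of interfollicular genes had medians below 0 in members but not in the other keratinocytes. Of 9 suprabasal genes 5 were called lower and 1 higher, beside 7.27% lower and 1.52% higher over all genes, with a median of -0.74 in members and 1.12 in the others. The list's sum did not follow its median, at 1665 and 1798 CPM in members and 4421 and 8909 in the others. The lower genes were the keratins Krt1 and Krt10, the desmosomal cadherin Dsg1a and the cornification genes Sbsn and Flg, and the higher gene was Krtdap, at 706 (689 to 725) and 1182 (1153 to 1212) CPM, which is made as cells leave the basal layer. Krtdap fell just short of 1.5-fold without the members with markers of another type, at 0.56, without the highest 8% of doublet scores, at 0.57, and with Gli2EKO members weighted to the control proportions of marker numbers, an alternative chosen after seeing the data, at 0.57. Of 10 basal genes 4 were lower and 1 higher, beside the same shares, with a median of -0.53 in members and 0.01 in the others. They were Krt15, the connexin gene Gjb2, at -0.99 (-1.28 to -0.70), the hemidesmosome gene Dst, at -0.64 (-0.72 to -0.57), and the matrix gene Thbs1, at -1.23 (-1.54 to -0.94) but at 0.16 when the rule was applied after thinning, with Ly6a higher at 1.32 (0.95 to 1.69) but at -0.17 without the members that had 2 or more markers of another type. Krt1 and Krt10 depended on the number of markers, at -1.16 and -1.54 for Krt10 with 4 and 5 markers and 0.24 and 0.22 with 6 and 7. With cells of 3 markers taken in as well, Krt1 and Krt10 lay on the other side, at 0.70 and 0.77, as did Flg, at 0.37. In the same alternative Dsg1a, Sbsn, Gjb2 and Dst fell short of 1.5-fold, at -0.30, -0.36, -0.54 and -0.58. Dst was also short of it with the rule applied after thinning, at -0.53. Without the members with markers of another type, Krt1 and Krt10 were at -0.24 and -0.22.

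Of 12 stress genes that dissociation can induce, 6 were called lower in Gli2EKO members and none higher, beside 7.27% lower and 1.52% higher over all genes, with a median of -0.57 and sums of 3075 and 1968 CPM. The other keratinocytes gave a median of -0.03 and sums of 5266 and 5849 CPM. They were Fos, Jun, Atf3, Egr1, Dnajb1 and Zfp36. Fos, an immediate early transcription factor gene, was at 260.1 (249.3 to 271) and 111 (102 to 120.2) CPM in members, and Egr1 at 282 (271 to 294) and 136 (126 to 147). Both were lower in Gli2EKO at each number of markers, with log2 ratios of -1.38, -1.35, -1.11 and -1.95 for Fos from 4 to 7 markers. With the rule applied after thinning, Fos stayed lower at -0.73, while Atf3, Dnajb1 and Zfp36 turned to values just above 0. With cells of 3 markers taken in, Fos was at -0.43 and Jun at -0.50, short of 1.5-fold. The part of dissociation in the other differences was not tested.

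Glycolysis genes had medians above 0 in both classes. Of 14 with enough counts Gapdh was called higher, beside 1.52% higher over all genes, and the list had a median of 0.38 in members and 0.33 in the others, with sums of 2859 and 4075 CPM in members. Ribosomal protein genes, none of 82 past 1.5-fold, had a median of 0.15 in members and 0.16 in the others. S phase and G2/M genes had medians of 0.14 and 0.07 in members, none of 12 past 1.5-fold in either list, and -0.23 and -0.06 in the others.

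In the signalling and adhesion lists most called genes were lower, beside 7.27% lower and 1.52% higher over all genes. Of 27 Wnt genes, the ligand gene Wnt7b was higher, at 0.63 (0.36 to 0.90), and the R-spondin gene Rspo3 lower, at -1.56 (-2.01 to -1.14). Of 19 BMP and activin genes, Bmp2, Inhba, Inhbb, Acvr2a and Bambi were lower and none higher. Inhba, a subunit of the activin that follistatin binds, was at 21.7 (18.7 to 25.1) and 11.9 (9.11 to 15.2) CPM in members and at 8.81 and 15.1 in the others, but its log2 ratio was 0.43 once the highest 8% of doublet scores were removed. Bambi, a decoy receptor, came to 0.06 in the same way. Of 8 semaphorin pathway genes, Sema3d, at -1.51 (-1.87 to -1.17), and Sema3e, at -0.64 (-0.76 to -0.52), were lower. Dll1 and Maml2 were lower among 8 Notch genes, Fgf7 and Erbb3 among 12 FGF and EGF genes, Crabp1 and Crabp2, which bind retinoic acid, among 10 retinoid and aldehyde genes, and Dsg3 among 20 adhesion and matrix genes. Dhcr7 was higher among the 20 genes of sterol and fatty acid synthesis. Of all the genes called in these lists, Sema3d, Erbb3 and Dhcr7 stayed past 1.5-fold under every alternative and the others did not, as Bmp2 at -0.09 with at least 5 markers and -0.10 with the rule applied after thinning.

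**Figure D4:**
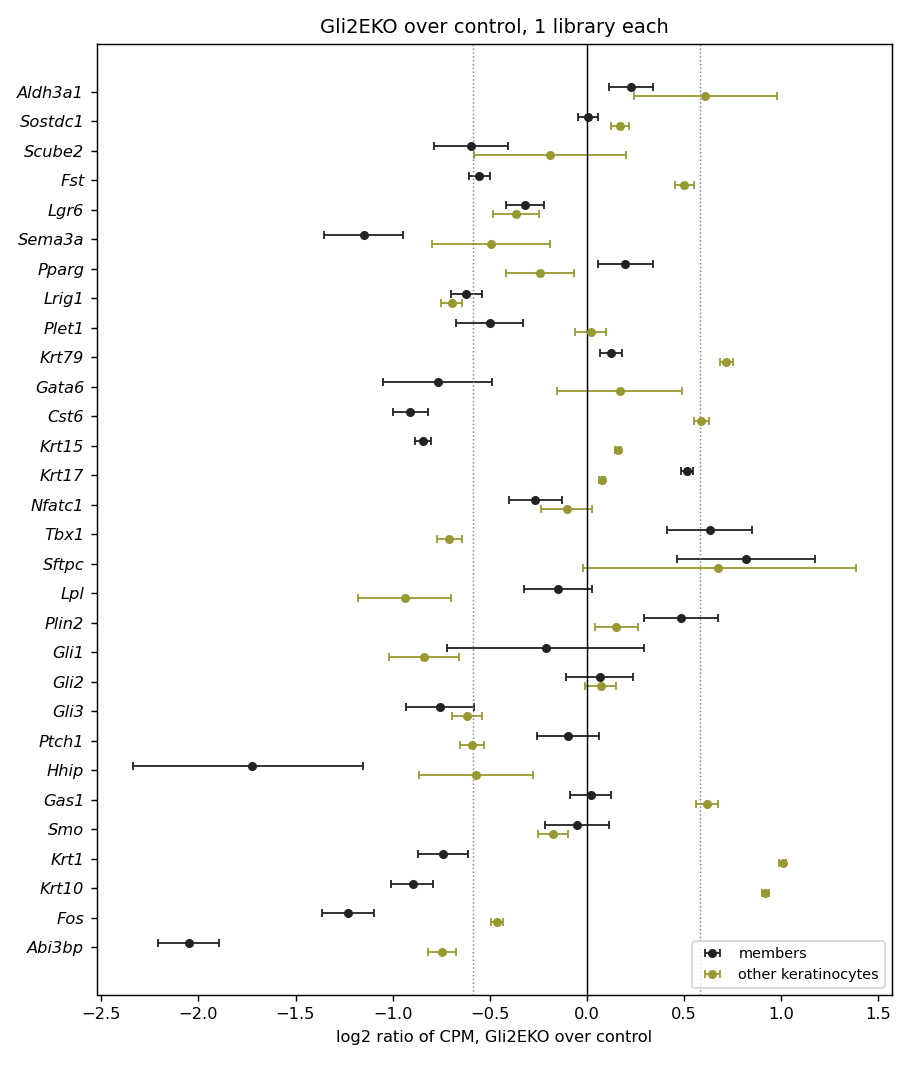
Log2 ratio of CPM, Gli2EKO over control (x axis), for 30 genes in members (black) and other keratinocytes (olive), with conditional binomial 95% intervals for counting error only and 1 library per genotype and dotted lines at 1.5-fold. Abi3bp, Hhip, Fos and Sema3a lie furthest to the left in members, and Cst6, Tbx1, Krt1 and Krt10 lie past 1.5-fold on opposite sides of 0 in the classes. Others, Fst, Krt15, Gata6, Pparg and Plet1 among them, lie on opposite sides of 0 but not past 1.5-fold in both classes. Abi3bp, Sftpc and Plin2 were added after their values were seen, and Aldh3a1, Sostdc1, Scube2, Fst, Lgr6, Sema3a and Pparg were used by the rule.

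Many of the most extreme ratios in members rested on few cells. Of the 15 highest genes, the skeletal muscle genes Ckm, Acta1, Tnnt3, Myl1, Tnnc2, Mylpf and Tnni2 led. They were followed by Ndufa12-ps, Eno3, Gm11290, Cx3cr1, Krt73, Hmga2, Dpp4 and Ccl20. No cell held more than 4 of 172 Gli2EKO UMIs of Ndufa12-ps, 5 of 85 of Hmga2 or 6 of 132 of Dpp4, while the muscle enzyme gene Eno3 had 86 of 109 Gli2EKO UMIs in 1 cell and the immune receptor gene Cx3cr1 100 of 114. For the muscle genes, 1 Gli2EKO member held 5197 of the 5272 UMIs of a list of 6 muscle genes. Control members held 75 UMIs of the list, none of them from Ckm. The 15 lowest included the haemoglobin genes Hba-a1, Hba-a2, Hbb-bs and Hbb-bt, near-identical pairs whose counts may be split, with 4969 of 5170 control UMIs in 1 cell. They also included Ccer2, with 2324 of 2329 control UMIs in 1 cell, Pinlyp, with 517 of 537, and the chemokine gene Cxcl2, with 90 of 140. The rest were Ptgds and the melanocyte genes Tyrp1, Mlana, Dct, Pmel, Tyr, Pax3 and Ednrb.

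All 5 melanocyte genes with enough counts were called lower, beside 7.27% lower and 1.52% higher over all genes. The list summed to 265 CPM in control and 9.97 in Gli2EKO members, with Dct the most abundant. Members with at least 3 of the 6 melanocyte genes numbered 9 in control and 0 in Gli2EKO. Leaving out the 24 control and 9 Gli2EKO members that carried muscle, melanocyte, dermal papilla or haemoglobin genes, lists and limits chosen after seeing the data, gave 139 genes higher and 609 lower. Of the UMIs of Rspo3, also a gene of the dermal papilla, 16 of 258 in control and 10 of 54 in Gli2EKO remained without them, and of Fgf7 2 of 99 and 4 of 7. Hhip was at -1.13 without them, and Crabp1, another papilla gene, at 1.28.

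Fibroblast genes differed between the members of the libraries. Of 7, Col1a1, Col3a1, Dcn and Lum were called higher and Pdgfra lower, beside 1.52% higher and 7.27% lower over all genes, with a median of 0.64 against -0.16 in the others. Without the highest 8% of doublet scores Col1a1 was at -0.63, Col3a1 at -0.48 and Lum at -0.28, whereas Dcn was at 1.87, though at -0.53 without the members that had 2 or more markers of another type. The list summed to 539 and 767 CPM in control and Gli2EKO members and to 662 and 685 in the others, with Postn its most abundant gene in members and none at 0. In fibroblast-marked cells, with more Col1a1 and Col1a2 than Krt5 and Krt14, it summed to 27741 and 25473 CPM. The immune list summed to 9.85 and 18.6 CPM in members, the endothelial list to 10.7 and 12.7, the smooth muscle list to 85.4 and 82.1 and the Merkel list to 7.24 and 0.767. The part of RNA from such cells in the differences between the libraries was not tested.

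Among follicle fates, inner root sheath genes gave Krt27, Krt28 and Krt73 higher and Krt71 lower of 7, beside 1.52% higher and 7.27% lower over all genes, with sums of 272 and 332 CPM. Krt73, at 2.08 (1.76 to 2.40), had 93 of its 298 Gli2EKO UMIs in 1 cell and 61 of its 114 control UMIs in 1 cell. With the rule applied after thinning, Krt27, Krt28 and Krt73 were at -0.22, -0.72 and -1.22. Hair shaft genes summed to 30.7 and 20.9 CPM, matrix genes to 124 and 97.4, and companion genes to 50.8 and 37.2, with Krt35 and the companion keratin Krt75 called lower. Krt35 was at 1.14 without the members with markers of another type and at -0.35 without the highest 8% of doublet scores.

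**Figure D5:**
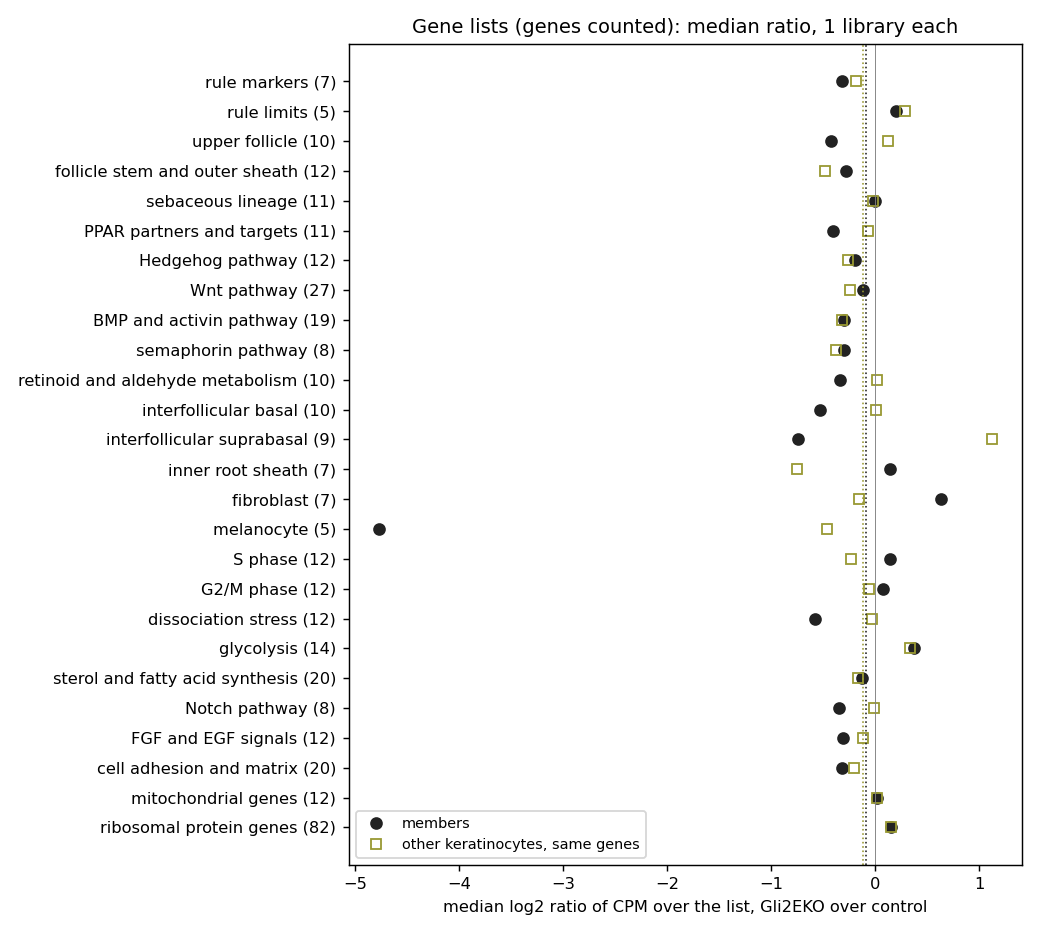
Median log2 ratio of CPM, Gli2EKO over control (x axis), over each gene list with at least 5 genes counted (number in parentheses), in members (filled circles) and for the same genes in other keratinocytes (open squares), with 1 library per genotype and dotted lines at the medians over all genes, -0.08 in members and -0.11 in the others. The melanocyte list lies furthest to the left in members, and the upper follicle, retinoid, interfollicular basal, suprabasal, inner root sheath, fibroblast, S phase and G2/M lists differ in sign between the classes.

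Among the 7199 genes with a UMI in at least 25% of the members of a library, a filter added after seeing the data to set aside genes carried by few cells, 66 (0.917%) were called higher and 322 (4.47%) lower, with a median of -0.07. A gene could pass through the library where it was high, so the difference itself helped to decide the filter. Skint4 passed through control alone, with 25 UMIs in the 312 Gli2EKO members. Ndufa12-ps passed through Gli2EKO alone, with 23 UMIs in the 511 control members. The counts and orders below describe this choice, and nothing more is read from them. The 15 lowest were Gm47283, Skint4, Abi3bp, Cgnl1, Fmn1, Marchf3, Sema3d, Sult5a1, Glul, Gjb6, Fos, Mir6236, Fhit, Clca3a1 and Skint1. Abi3bp, a matrix protein gene, was at 308 (296 to 320.1) CPM in control and 74.4 (67.2 to 82.2) in Gli2EKO members, and at 144 and 85.8 in the others. It was lower in Gli2EKO at every number of markers, with log2 ratios of -2.01, -1.73, -2.70 and -2.10. Skint4, of a family of near-identical skin genes whose counts may be split, was at -2.28 (-2.94 to -1.67) in members and -0.08 in the others. Cgnl1, a junction protein gene, was at -1.66 (-2.03 to -1.31), and Glul, the glutamine synthetase gene, at -1.31 (-1.54 to -1.09). The connexin genes Gjb6 and Gjb2 were at -1.25 and -0.99. Gm47283 was lower in both classes, at -2.84 (-3.23 to -2.48) and -2.72 (-2.88 to -2.55).

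The 15 highest of these genes were Ndufa12-ps, Cpxm1, Dcn, Mt2, Tssc4, Rn7sk, Mt1, ENSMUSG00000119980, Lgals1, Cstdc5, Etv4, Snhg1, Chchd4, Rangrf and Pop4. Ndufa12-ps is a pseudogene whose counts may come from its parent gene, and it was higher in both classes, at 3.60 and 3.22. The metallothionein genes Mt1 and Mt2, whose products bind metal ions, were at 419 (406 to 434) and 819 (794 to 844) CPM and at 259.6 (248.9 to 271) and 565 (544 to 585). Etv4, a transcription factor gene that FGF signals induce, was at 29.9 (26.3 to 33.8) and 55.99 (49.8 to 62.8) CPM in members and at 66.2 and 50.7 in the others, and Lgals1, the galectin-1 gene, at 0.92 (0.81 to 1.04) and -0.03 (-0.08 to 0.01). Lgals1 fell short of 1.5-fold with the rule applied after thinning, at 0.17, and without the highest 8% of doublet scores, at 0.53.

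Without the filter, Ckm, with no control UMI in members and so no ratio, was placed first among the 10 genes that differed most between members and other keratinocytes, and the others were Tnnt3, Tnnc2, Acta1, Myl1, Hbb-bt, Tyrp1, Cxcl2, Dct and Mylpf, all of them named above. With it, where a gene could pass through the library in which it was high, they were Skint4, Krt10, Krt1, Dcn, Tmem45a, Clca3a1, ENSMUSG00000119980, Cst6, Ly6d and Ahnak2. The membrane protein gene Tmem45a was at 104 (97.2 to 111) and 52.5 (46.5 to 59.1) CPM in members and at 46.6 and 74.1 in the others. Ly6d, a surface protein gene of epithelium, was at -0.58 (-0.64 to -0.52) in members and 0.90 (0.88 to 0.92) in the others, and Ahnak2 at -0.88 and 0.56. Sftpc, at 0.82 (0.47 to 1.17) in members, was higher in both classes, with 0.67 (-0.02 to 1.39) in the others. Whether these ratios differed between the classes was not tested.

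Shares of cells with a UMI were compared after thinning each cell to 5000 UMIs, which left out 9 control and 1 Gli2EKO member below that depth. Background was taken from immune- and endothelial-marked cells, with a median of 10857 and 12915 UMIs before thinning. Of these 143 control and 90 Gli2EKO cells, 16 and 15 also met the rule for keratinocytes, and 16.8% and 31.1% were among the highest doublet scores, so their shares may hold keratinocyte RNA. Sftpc was found in 5.78% (3.90 to 8.19) of control and 10.9% (7.69 to 14.9) of Gli2EKO members, 14.1% and 21.8% before thinning, and in 0 of 118 and 0 of 80 background cells. A count of 0 was read as up to 3 counts, a floor that differs from the Clopper-Pearson bound, and so allows shares of up to 2.54% and 3.75%. Lrig1 was found in 88.4% (85.3 to 91.1) and 76.2% (71.1 to 80.8) of members, 97.7% and 93.6% before, and in 15.3% and 10% of background cells. Abi3bp was found in 51.00% (46.5 to 55.5) and 19.3% (15.1 to 24.1), 67.5% and 35.6% before, with a background of 9.32% and 3.75%. Lpl and Plin2 were also common in background cells, at 20.3% and 18.8% for Lpl and 27.97% and 25% for Plin2. Other keratinocytes had less, 4.13% and 2.26% for Lpl and 10.5% and 10.6% for Plin2, so the background cells set no floor for these genes. The shares in members were 31.7% and 27.3% for Lpl and 21.5% and 26.05% for Plin2. Fos was found in fewer members than background cells, 22.7% and 17.4% against 44.9% and 48.8%.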

How the data were processed

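The deposited files hold UMI counts per gene and cell barcode for each library, which the authors made with Cell Ranger 9.0.1 on the GRCm39 genome with GENCODE M30 annotation, per the study's methods. Counts were used as deposited. The study's cell filter was applied, and its removal of doublets with another tool was not repeated. Scrublet scores were computed with scanpy 1.11.5, and no cell was removed for them except in an alternative. Members and gene lists were chosen with earlier results of these data known.

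The UMIs of a class of cells were pooled within each library and divided by the pooled total. Genotype ratios were read for genes with 100 UMIs or more in members, and 1.5-fold was the limit for a call. The named genes were those of the lists, the 20 leading and 10 lowest genes of members, the 15 highest and 15 lowest genotype ratios and the 10 largest differences between classes. All other genes named, the 25% filter, the weighting by marker number, the stray cells and their lists were chosen after values were seen. The alternatives were other marker numbers, doublet removal, thinning, no sebocyte gene, no Pparg, no cells with markers of other types, other scalings and other minimum counts. Python 3.11.15, numpy 2.4.6, scipy 1.17.1, pandas 2.3.3 and matplotlib 3.10.9 were used.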

Additional observations from a re-analysis of the deposited data

Results flagged for a closer look

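Some genes that were named in the report and found in at least 25% of the members of a library differed between the libraries in opposite directions in members and in other keratinocytes of the same libraries, past 1.5-fold each way. With 1 library per genotype the difference was not tested for any of them. Krt1 had a log2 ratio of Gli2EKO over control of -0.74 in members and 1.01 in the other keratinocytes. Krt10, its partner in suprabasal filaments, was at -0.90 and 0.92, and the difference was not tested. Cst6 was at -0.91 in members and 0.59 in the others. Tmem45a was at -0.98 in members and 0.67 in the others. Tbx1 went the other way, at 0.63 in members and -0.71 in the others, and this difference was not tested either. Cxcl2, Fabp4, Flg, Inhba, Krt27 and Krt28 also lay past 1.5-fold on opposite sides, as Cxcl2 at -4.85 and 0.65 and Inhba at -0.87 and 0.78, but were found in fewer members. In members, 1 cell of each library held 605 of 1785 control and 221 of 662 Gli2EKO UMIs of Krt1, and 1 of each held 844 of 2772 and 344 of 921 of Krt10. These calls depended on the rule. With cells of 3 markers taken in, Krt1 was at 0.70, Krt10 at 0.77 and Tmem45a at -0.56, and with the rule applied after thinning Cst6 was at 0.12 and Krt10 at -0.07. In members with at least 5 markers Tbx1 was at 0.00 and Krt1 at -0.13. Without the members that had 2 or more markers of another type, Krt1 was at -0.24, Krt10 at -0.22 and Cst6 at -0.43.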

How the results depend on the processing

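The ratio of member shares among keratinocytes was below 1 in value under every alternative, but its interval included 1 for members of all kept cells (0.762 to 1.01), of keratinocytes with Krt17 (0.838 to 1.17) and without members that had 2 markers of another type (0.674 to 1.01). It moved to 0.641 with at least 5 markers, 0.879 with at least 3, 0.615 with the rule applied after thinning to 5000 UMIs, 0.880 of all kept cells and 0.989 of keratinocytes with Krt17. The other alternatives gave 0.762 to 0.826.

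The numbers of genes higher and lower in Gli2EKO members were 253 and 477 when centred on the median gene, 284 and 1063 with a minimum of 50 UMIs, and 96 and 444 with a minimum of 200. They were 4695 and 6482 with no minimum and 0.5 UMIs added, 33 and 161 at 2-fold, and 66 and 322 for genes found in 25% of members. Genes 2-fold lower in members than in other keratinocytes numbered 602 with at least 5 markers and 678 after thinning. Fewer or more genes counted, or a higher limit, account for the changes with minima of 50 and 200 UMIs, the limit and the 25% filter by construction. The setting with no minimum also added 0.5 UMIs, so its change is not put down to either choice. Otherwise the cause was not tested.

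Some genes past 1.5-fold in members turned direction, and the cause was not tested. With at least 5 of 7 markers the log2 ratio of Ccl20 was -1.002, Pinlyp 0.35 and Tnni2 -0.48. With at least 3 markers the log2 ratio of Fabp4 was 1.30, Flg 0.37, Krt1 0.70, Krt10 0.77 and Krt28 -0.15. Without the highest 8% of doublet scores the log2 ratio of Bambi was 0.0612, Ccer2 0.0612, Col1a1 -0.63, Col3a1 -0.48, Inhba 0.43, Lum -0.28 and Pax3 0.32. With the rule applied after thinning to 5000 UMIs the log2 ratio of Atf3 was 0.0098, Bambi 0.34, Col1a1 -0.60, Col3a1 -0.72, Cst6 0.12, Dnajb1 0.0832, Inhbb 0.14, Krt27 -0.22, Krt28 -0.72, Krt73 -1.22, Thbs1 0.16 and Zfp36 0.0183. With no sebocyte gene the log2 ratio of Cx3cr1 was -0.88 and Pinlyp 0.36. With Pparg left out of the rule the log2 ratio of Cx3cr1 was -0.49 and Tnni2 -1.22. Without members that had 2 markers of another type, which leaves 248 control and 166 Gli2EKO members and, in control and Gli2EKO, 1 and 1 UMIs of Fgf7, 2 and 2 of Hhip, 3 and 5 of Ptgds and 5 and 2 of Tnni2, the log2 ratio of Col1a1 was -0.33, Cx3cr1 -0.52, Dcn -0.53, Dct 0.45, Defb6 -0.53, Ednrb 1.08, Fgf7 0.62, Gm42906 0.16, H19 -0.82, Hhip 0.62, Inhba 1.28, Krt27 -0.13, Krt28 -1.54, Krt35 1.14, Krt73 -1.18, Ly6a -0.17, Pmel 0.10, Ptgds 1.35, Serpinb2 0.62, Tnni2 -0.71 and Zfp36 0.52. Without the stray cells, an alternative chosen after seeing the data, the log2 ratio of Crabp1 was 1.28, Fgf7 1.64, Inhba 0.77, Pax3 0.96, Pinlyp 0.13, Ptgds 0.16 and Tnni2 -0.86. Crabp1 in members over other keratinocytes turned in Gli2EKO to -0.46 without the highest doublet scores and -4.27 after thinning, and in control to -1.24 without the stray cells. No named gene past 1.5-fold turned when centred on the median gene, where 157 of all the ratios of named genes stayed within their counting interval and 17 moved, when scaled without mitochondrial and ribosomal genes (171 and 3) or when weighted by marker number (149 and 25).

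Ckm has no UMI in control members and gets no ratio, and a gene with no UMI in a library under an alternative gets none there. No paired analysis was possible because each genotype has 1 library. Counting intervals hold no variation between animals. Depth limits the rule, which favours deep cells, and limits genes of low level, for which a few cells decide a ratio. Members are a range of marker counts in which doublets and cells with RNA of other types remain.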
